A study of Arabidopsis thaliana with 36 samples.

Results

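FIT (AT2G28160) and the 4 subgroup Ib basic helix-loop-helix (bHLH) genes BHLH38 (AT3G56970), BHLH39 (AT3G56980), BHLH100 (AT2G41240) and BHLH101 (AT5G04150) encode the transcription factors at the centre of the iron-deficiency response of Arabidopsis thaliana roots. They were taken by locus code as 5 of the 28775 genes in a table of RNA sequencing read counts. The 4 groups were roots of opt3-2 plants, roots of wild type plants (Col-0), leaves of opt3-2 plants and leaves of wild type plants, called roots and shoots here, with 3 biological replicates in each group and 3 technical replicates of each. All plants, the wild type included, had been exposed to 20 µM CdCl2 for 72 h in hydroponic medium after 11 days on plates and 22 days in that medium without cadmium. Each sample pooled 3 to 4 plants. Untreated plants were not analysed here, and the effect of cadmium is not measured. OPT3 is a transporter that loads iron into the phloem, and leaves of opt3 mutants are known to hold iron while the plant goes on signalling that it lacks it. The opt3-2 plants stand for this genotype as 1 mutant line, whose position of mutation within the gene is not given in the sources used here.

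As background, FIT works as a heterodimer with a subgroup Ib factor. The pair activates the ferric reductase FRO2, the ferrous iron transporter IRT1 and the coumarin pathway in the outer cell layers of the root. FIT is made mostly in roots, whereas the subgroup Ib genes are induced by iron deficiency in leaves as well as roots. Their transcription is driven by the subgroup IVc bHLH factors and URI. The ubiquitin ligases BTS, BTSL1 and BTSL2 limit this response, and the IMA peptides counter BTS.

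The 5 genes lie on 3 chromosomes of the TAIR10.1 assembly. FIT spans chr2:12004658-12006276 on the plus strand, in 4 exons. BHLH38 spans chr3:21084035-21085245 and BHLH39 chr3:21086390-21087710, both on the minus strand with 2 exons, in tandem with 1144 bases between them. BHLH100 spans chr2:17198037-17199454 and BHLH101 chr5:1138410-1139633, both on the minus strand, with 2 and 3 exons. The 250 bases before each annotated gene start are printed because the factors bind E-boxes (CANNTG, of which the G-box CACGTG is one form) and because subgroup Ib genes are themselves targets of bHLH factors. Capitals mark every E-box match. The motif reads as CANNTG on both strands, so 1 search covers both, and every G-box is also counted as an E-box.
FIT: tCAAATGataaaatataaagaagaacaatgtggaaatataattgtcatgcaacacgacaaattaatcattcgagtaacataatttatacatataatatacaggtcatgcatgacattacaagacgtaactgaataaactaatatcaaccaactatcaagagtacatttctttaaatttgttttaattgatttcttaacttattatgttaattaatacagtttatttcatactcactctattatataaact
BHLH38: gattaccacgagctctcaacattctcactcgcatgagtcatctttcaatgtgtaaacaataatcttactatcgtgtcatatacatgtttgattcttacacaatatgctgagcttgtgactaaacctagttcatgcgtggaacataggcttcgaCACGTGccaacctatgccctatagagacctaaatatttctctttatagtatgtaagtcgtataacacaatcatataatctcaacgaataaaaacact
BHLH39: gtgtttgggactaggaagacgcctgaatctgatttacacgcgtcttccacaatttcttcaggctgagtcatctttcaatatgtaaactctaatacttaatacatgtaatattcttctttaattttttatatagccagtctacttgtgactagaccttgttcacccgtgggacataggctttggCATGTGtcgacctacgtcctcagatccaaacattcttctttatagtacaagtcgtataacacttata
BHLH100: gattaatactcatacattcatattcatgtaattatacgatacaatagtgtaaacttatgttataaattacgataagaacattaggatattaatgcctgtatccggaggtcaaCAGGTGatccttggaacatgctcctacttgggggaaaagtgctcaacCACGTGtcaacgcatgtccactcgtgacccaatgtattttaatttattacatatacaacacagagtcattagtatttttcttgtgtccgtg
BHLH101: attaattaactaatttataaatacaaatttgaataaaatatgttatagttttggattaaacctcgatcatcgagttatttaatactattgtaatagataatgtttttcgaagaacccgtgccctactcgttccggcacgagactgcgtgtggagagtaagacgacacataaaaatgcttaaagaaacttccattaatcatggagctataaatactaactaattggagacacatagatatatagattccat

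These windows come from the RefSeq TAIR10.1 genome, 5′ to 3′ along each gene's own strand, at chr2:12004408-12004657 for FIT, chr3:21085246-21085495 for BHLH38, chr3:21087711-21087960 for BHLH39, chr2:17199455-17199704 for BHLH100 and chr5:1139634-1139883 for BHLH101. BHLH38 held a G-box with its first base at -97 from the gene start, and BHLH100 held one at -91. BHLH39 held the E-box CATGTG at -67, BHLH100 held a second E-box, CAGGTG, at -138, and FIT held CAAATG at -249. The BHLH101 window held 0 matches. Of 27443 windows of the same length before protein-coding genes, 6.49% held a G-box and 55.3% an E-box. The windows of the tandem pair BHLH38 and BHLH39 shared a run of 16 bases, tgagtcatctttcaat, which 2 of the 27443 windows held, theirs. Between any other pair of the 5 windows the longest shared run was 7 to 9 bases. A match is a string of letters and does not show binding.

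The coding sequences of the tandem pair were also the most alike, with 646 of 762 aligned bases identical (84.8%). BHLH100 was 75.3% identical to BHLH38 and 76.3% to BHLH39. BHLH101 shared 60.9% to 64.3% with the other subgroup Ib genes, and FIT shared 60.2% to 64.0% with all 4. These percentages are of aligned bases and leave out gaps. For FIT, 695 to 754 of its 957 coding bases were aligned. Unrelated genes were not aligned for comparison. The longest coding run that BHLH38 and BHLH39 share has 34 bases and is printed because reads within it could come from either gene.
BHLH38 and BHLH39: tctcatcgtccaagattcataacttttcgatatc
It lies at chr3:21084397-21084430 in exon 2 of BHLH38 and at chr3:21086805-21086838 in exon 2 of BHLH39, read here on the minus strand. No 50-base word of any member's exons was found elsewhere in the 5 chromosomes (0 of 984 words for BHLH38 and 0 of 1117 for BHLH39). The read length is not given in the sources used here.

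Technical replicates were summed into 12 libraries, whose totals ran from 22449113 to 25141843 counts in opt3-2 roots, 35523985 to 36484138 in wild type roots, 21262406 to 29692680 in opt3-2 shoots and 27229534 to 33221855 in wild type shoots. A count of 3 then corresponds to 0.0705 to 0.167 CPM, the usual counts-per-million unit with scaled library sizes. The members had 96 counts or more in every library. OPT3 itself had 9.02, 4.55 and 4.13 CPM in opt3-2 roots against 38.4, 47.9 and 41.4 CPM in wild type roots, and 23.4, 17.6 and 24.1 CPM in opt3-2 shoots against 389, 321 and 352 CPM in wild type shoots. The leaf markers RBCS1A, CA1, LHCB1.1 and PSAD1 summed to 39.6 to 67.8 CPM in root libraries, as the tissue labels say, and to 14455 to 16014 CPM in opt3-2 shoots and 12435 to 13750 CPM in wild type shoots. SCR, by contrast, was at a similar level in roots and shoots. All p-values measure the spread between samples that the labels call biological replicates; whether these were grown apart is not stated.

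The first question was whether the mutation changes these factors in cadmium-exposed roots. FIT and BHLH39 were higher in opt3-2 roots, FIT by 2.29-fold and BHLH39 by 1.69-fold, and BHLH38, BHLH100 and BHLH101 did not pass the test. Over the 21887 genes tested, 39% passed, 17.5% as higher in opt3-2 roots and 21.5% as lower, so the 2 of 5 members called are a share near that of the whole table. Calls rest on edgeR's quasi-likelihood F test with a Benjamini-Hochberg adjusted p below 0.05 over all genes tested.

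FIT had 75.7, 95.2 and 110.4 CPM in opt3-2 roots and 47.8, 41.3 and 33.8 CPM in wild type roots. All opt3-2 root libraries lay above all wild type root libraries, which 53.2% of all tested genes also show in one direction or the other. The difference was 1.19 ± 0.16 on the log2 scale (SE; 95% interval 0.84 to 1.55, adjusted p = 2.00e-04, n = 3 each, edgeR). BHLH39, a partner of FIT, had 28.2, 27.6 and 30.0 CPM in opt3-2 roots and 16.9, 20.9 and 13.1 CPM in wild type roots. The groups did not overlap, and the opt3-2 libraries were the more alike, with an SD of 1.26 CPM against 3.88 CPM in wild type. The log2 difference was 0.75 ± 0.16 (0.40 to 1.102, adjusted p = 0.00317 by edgeR). In bulk tissue, more cells of a type and more RNA per cell cannot be told apart.

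BHLH100 had 7.04, 8.49 and 8.89 CPM in opt3-2 roots and 5.60, 6.44 and 3.72 CPM in wild type roots. Every opt3-2 library was above every wild type library, but the log2 difference of 0.63 ± 0.27 (0.05 to 1.22) did not pass after adjustment (adjusted p = 0.0810, edgeR). It passed in DESeq2, with 0.66 and an adjusted p of 0.0355, and in edgeR on the 6 root libraries alone, with 0.65 and an adjusted p of 0.0420. BHLH38 had 17.7, 19.2 and 22.3 CPM in opt3-2 roots and 20.5, 22.2 and 13.2 CPM in wild type roots. Its groups overlapped, and wild type replicate 3 was the lowest of the 6. The interval of its log2 difference, -0.36 to 0.52 around 0.08, holds a moderate change either way. BHLH101 had 4.75, 4.73 and 4.98 CPM in opt3-2 roots and 3.88, 4.70 and 4.97 CPM in wild type roots, with a log2 difference of 0.09 (-0.25 to 0.43).

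In shoots the called members were BHLH38 and BHLH39, higher in opt3-2 by 1.52-fold and 1.48-fold, while FIT, BHLH100 and BHLH101 did not pass. Over all genes 43.9% passed, 21.3% as higher in opt3-2 and 22.6% as lower, so here too the members' share is near that of the table. BHLH38 had 30.1, 27.3 and 24.7 CPM in opt3-2 shoots and 19.3, 13.6 and 21.1 CPM in wild type shoots. The groups did not overlap, as for 53% of all genes, and the gap between the lowest opt3-2 and the highest wild type library was small. The log2 difference was 0.60 ± 0.20 (0.16 to 1.05, adjusted p = 0.0314, n = 3 each, edgeR).

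BHLH39 had 12.5, 11.6 and 8.93 CPM in opt3-2 shoots and 7.93, 6.31 and 8.05 CPM in wild type shoots. Its groups did not overlap either, with opt3-2 replicate 3 next to the wild type. The log2 difference was 0.57 ± 0.18 (0.18 to 0.95, adjusted p = 0.0212 by edgeR). Neither shoot call held under every alternative. Without opt3-2 shoot replicate 1, opt3-2 shoot replicate 2 or wild type shoot replicate 2, edgeR's adjusted p was 0.102, 0.0689 and 0.0961 for BHLH38 and 0.0910, 0.0637 and 0.0739 for BHLH39. Without wild type shoot replicate 1, that of BHLH38 was 0.0560. The direction stayed positive for both genes in every fit made.

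FIT was low in shoots, at 5.33, 5.36 and 4.58 CPM in opt3-2 and 4.88, 3.58 and 5.38 CPM in wild type, or 96 to 163 counts a library. The groups overlapped, and the interval of the log2 difference ran from -0.32 to 0.60. BHLH100 had 19.7, 15.4 and 10.8 CPM in opt3-2 shoots and 17.7, 10.8 and 16.7 CPM in wild type shoots. Its libraries spread about as widely within each genotype, and the interval around 0.03 ran from -0.53 to 0.58. BHLH101 had 13.2, 12.5 and 8.69 CPM in opt3-2 shoots and 14.3, 12.9 and 15.5 CPM in wild type shoots. It is the member with the lowest shoot difference, -0.31 ± 0.15 (-0.63 to 0.01, adjusted p = 0.104, edgeR), and its groups overlapped.

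**Figure D1:**
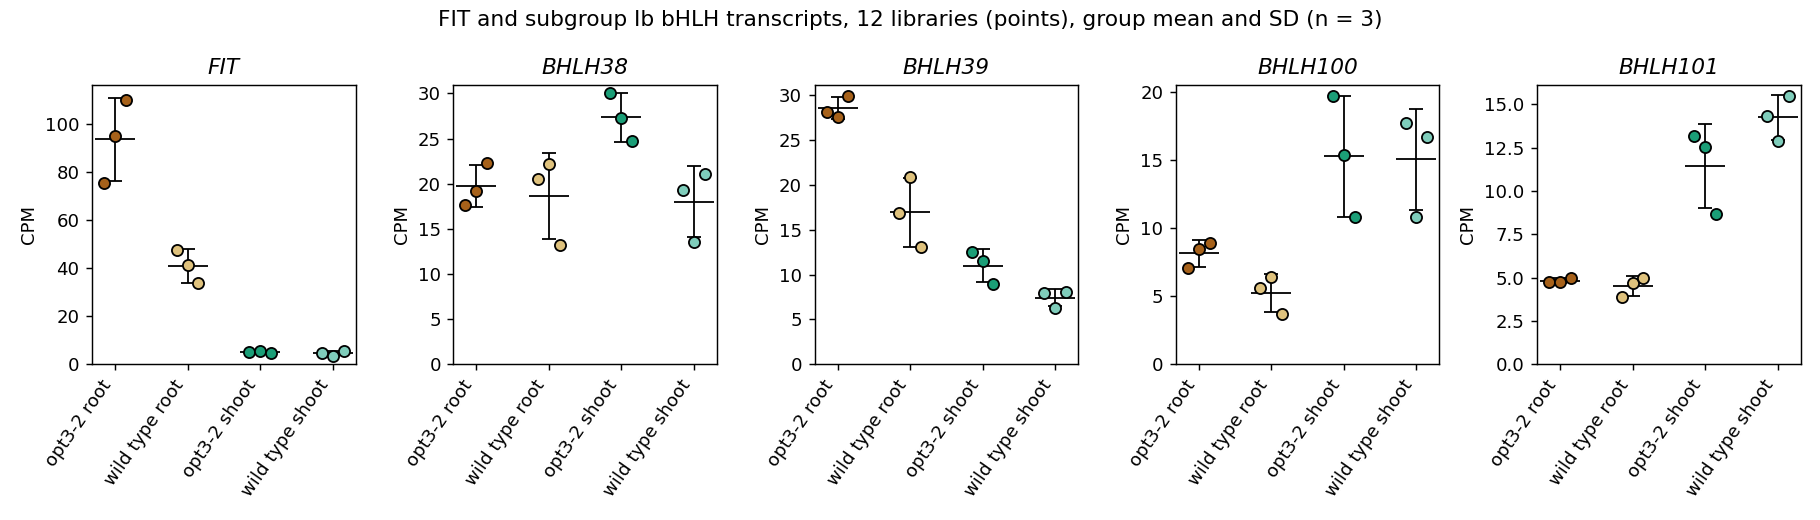
CPM of the 5 genes in each of the 12 libraries (points, replicates 1 to 3 from left to right) with the group mean and SD (n = 3). FIT reached 75.7 to 110.4 CPM in opt3-2 roots and stayed at 5.38 CPM or below in all shoot libraries.

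The next comparison asked whether the genotype difference was the same in both tissues. FIT was the member whose difference was larger in roots than in shoots, by 1.05 ± 0.26 on the log2 scale (0.47 to 1.63, adjusted p = 0.00662, edgeR's interaction term over 12 libraries). Over all genes 48.2% passed this test, 24.2% with the larger value in roots and 24% with the larger value in shoots. For BHLH39 the roots exceeded the shoots by 0.19 (-0.33 to 0.71), an interval that spans no difference and a moderate one. BHLH100 gave 0.60 (-0.20 to 1.41), BHLH101 0.40 (-0.06 to 0.87) and BHLH38 -0.52 (-1.15 to 0.10), and none of the 4 subgroup Ib genes passed. BHLH38 was called in shoots and not in roots, yet its own difference between tissues did not pass (adjusted p = 0.155, edgeR).

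**Figure D2:**
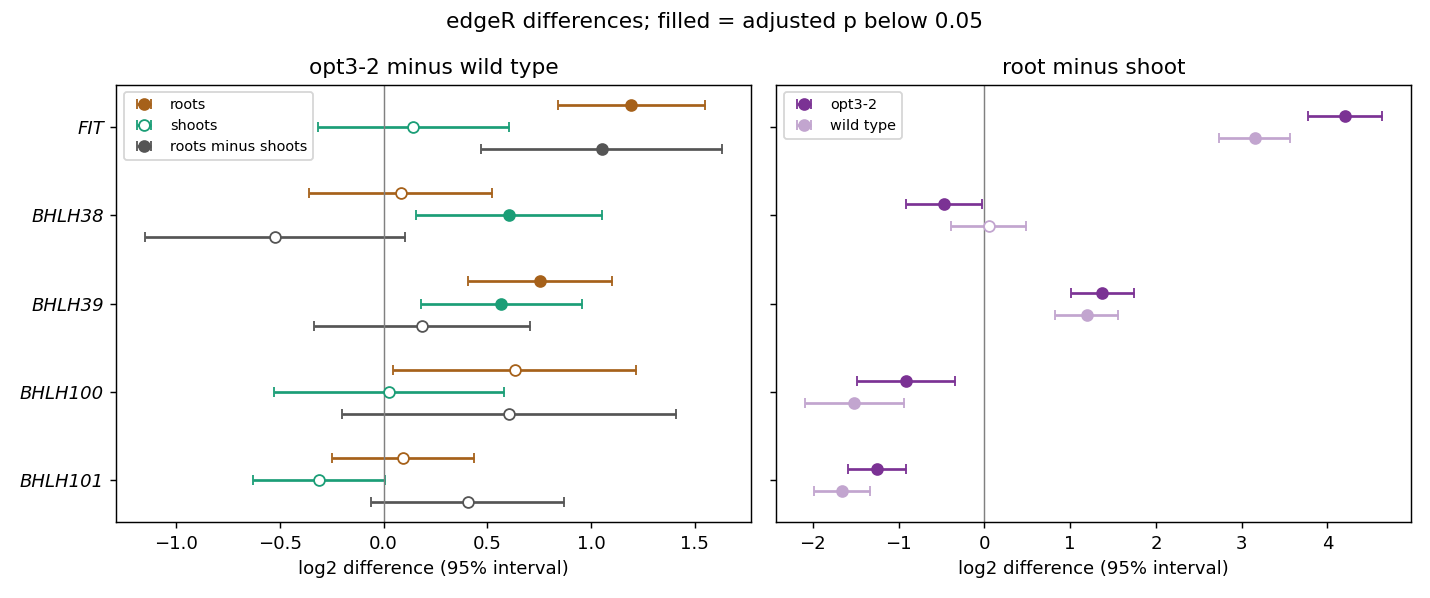
Differences on the log2 scale with 95% intervals, opt3-2 minus wild type in roots, in shoots and between these (left), and root minus shoot in each genotype (right). Filled points have an adjusted p below 0.05; FIT stands at 1.19 in roots and 0.14 in shoots, and the subgroup Ib genes fall on both sides of 0 between tissues.

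Between tissues the subgroup Ib genes went different ways. Of the 5 members, 2 were higher in roots and 3 lower in opt3-2, against 43.6% and 41% of all genes, and 2 were higher and 2 lower in wild type, against 39.5% and 38.6%. FIT was 18.4-fold higher in roots than in shoots of opt3-2 (log2 4.20 ± 0.20, adjusted p = 1.35e-09, edgeR) and 8.89-fold higher in wild type (3.15 ± 0.19, adjusted p = 1.64e-08). BHLH39 was also higher in roots, by 2.60-fold in opt3-2 (adjusted p = 7.68e-06) and 2.28-fold in wild type (adjusted p = 3.72e-05, edgeR). BHLH100 and BHLH101 were higher in shoots. BHLH100 was lower in roots by -0.91 ± 0.26 (log2) in opt3-2 and by -1.51 ± 0.26 in wild type, and BHLH101 by -1.25 ± 0.16 in opt3-2 and -1.65 ± 0.15 in wild type. BHLH38, the tandem neighbour of BHLH39, had a root minus shoot difference of -0.47 ± 0.20 in opt3-2 (adjusted p = 0.0465, edgeR) and 0.05 ± 0.20 in wild type. The first of these calls was lost without any one of 7 of the 12 libraries, 3 of them in wild type, and the value was -0.04 with library sizes as the only scaling.

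Set in order, FIT was highest in opt3-2 roots, then wild type roots, then the shoots of both genotypes, which did not differ beyond their spread. BHLH39 had 4 levels that each differed from the next (opt3-2 roots, wild type roots, opt3-2 shoots, wild type shoots), the last of these steps being the shoot call above. BHLH38 was highest in opt3-2 shoots, and its other 3 groups did not differ from their neighbours. BHLH100 and BHLH101 were higher in the shoots of both genotypes than in the roots of both, with no called step within a tissue. The steps that cross both genotype and tissue were called for 80.6% of all genes between opt3-2 roots and wild type shoots, and for 82.6% between opt3-2 shoots and wild type roots.

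Because the tandem genes split between tissues, the make-up of the subgroup Ib pool was set out within each library. Scaling between libraries does not enter the shares and ratios, but it does enter the sums. Levels are given here as CPM per kb of annotated exon. The summed pool came to 53.2 ± 3.88 in opt3-2 roots, 39.9 ± 8.49 in wild type roots, 58.1 ± 9.95 in opt3-2 shoots and 48.9 ± 8.65 in wild type shoots (CPM per kb, SD, n = 3 each). The opt3-2 root libraries, the lowest at 50.02, lay above all wild type root libraries, the highest at 47.6, and the genotypes overlapped in shoots. BHLH39 made up 44.3% ± 1.87 of it in opt3-2 roots and 34.9% ± 1.25 in wild type roots, but 15.6% ± 0.351 in opt3-2 shoots and 12.6% ± 0.653 in wild type shoots. BHLH38 made up 34.2% ± 1.55 in opt3-2 roots and 42.9% ± 3.22 in wild type roots, and 43.9% ± 3.58 in opt3-2 shoots and 33.8% ± 1.71 in wild type shoots. Within either tissue, the BHLH39 share of the opt3-2 libraries lay above that of all wild type libraries. The BHLH38 share moved the opposite way in the 2 tissues, lower in opt3-2 roots and higher in opt3-2 shoots, again without overlap. Shares of 1 pool depend on each other, and the level of BHLH38 itself was not called in roots (log2 0.08, adjusted p = 0.775, edgeR). Nor did its genotype difference between tissues pass (adjusted p = 0.155, edgeR). Levels of single genes did not overlap for 53.2% of all genes in roots and 53% in shoots.

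BHLH100 made up 13.2% ± 0.961 of the pool in opt3-2 roots, 11.3% ± 0.731 in wild type roots, 22.4% ± 2.82 in opt3-2 shoots and 26.4% ± 2.46 in wild type shoots. BHLH101 made up 8.37% ± 0.389 in opt3-2 roots, 10.9% ± 3.48 in wild type roots, 18.1% ± 1.25 in opt3-2 shoots and 27.2% ± 2.93 in wild type shoots. In wild type roots the BHLH101 share reached 14.9% in 1 library, replicate 3, the wild type root library in which the other 4 members were lowest. With 3 libraries against 3, an exact permutation test of a share cannot give a two-sided p below 0.1, so shares and ratios are given without tests.

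The ratio of BHLH38 to BHLH39 was below 1 in every opt3-2 root library, at 0.704, 0.783 and 0.834, and above 1 in every wild type root library, at 1.37, 1.19 and 1.13. In shoots it was 2.70, 2.65 and 3.10 in opt3-2 and 2.74, 2.42 and 2.95 in wild type, and the genotypes overlapped. So the ratio was below 1 in opt3-2 roots alone among the 4 groups, per kb of exon and on counts without the length. On counts it averaged 0.689 in opt3-2 roots and 1.09 in wild type roots, where replicate 3 was at 1.004. Whether it crosses 1 depends on the length taken for BHLH38, of whose exon bases 35.7% overlap a gene on the opposite strand. The ratio of BHLH39 to BHLH101 was 0.846, 0.824 and 0.915 in opt3-2 shoots against 0.493, 0.436 and 0.464 in wild type shoots.

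Per kb of exon, FIT exceeded the summed subgroup Ib level in opt3-2 roots, with ratios of 1.097, 1.32 and 1.39, and was below it in wild type roots, at 0.839, 0.630 and 0.797. On counts without the length the means were 1.52 in opt3-2 roots and 0.917 in wild type roots, where 1 library then reached 1.02. In shoots the ratio was 0.0574, 0.0652 and 0.0699 in opt3-2 and 0.0668, 0.0666 and 0.0711 in wild type. Each root library thus held far more FIT transcript per subgroup Ib transcript than any shoot library. Transcript ratios do not measure protein, and FIT protein is known to be turned over by the proteasome.

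**Figure D3:**
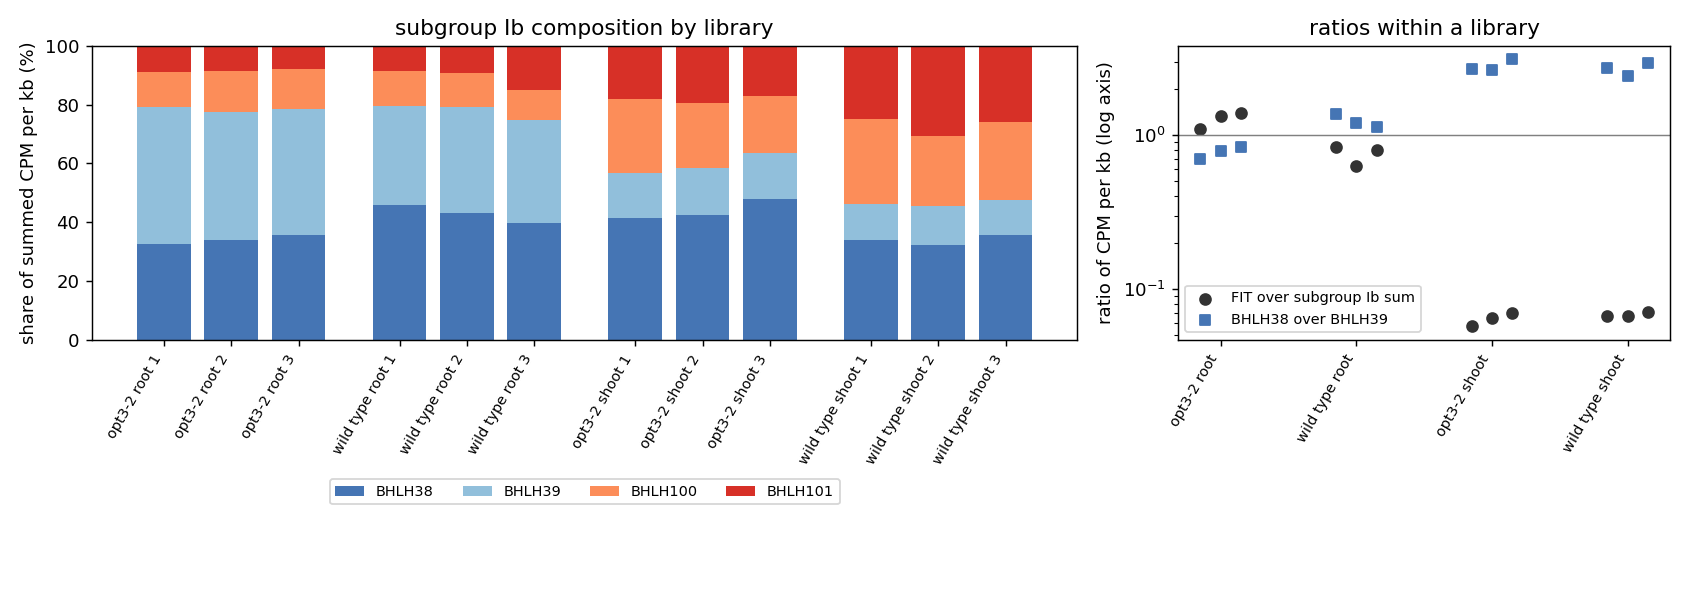
Left, share of each subgroup Ib gene in their summed CPM per kb of exon, by library; right, ratios within each library on a log axis, with a line at 1. BHLH39 takes 42.9% to 46.4% in opt3-2 root libraries and 12.1% to 16.0% in shoot libraries, and FIT over the subgroup Ib sum is above 1 in opt3-2 roots alone.

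For 2 members, genes on the opposite strand overlap the exons, and whether counting used strand is not given in the sources used here, so reads of a gene and its antisense partner cannot be told apart. PIP5K4 (AT3G56960) covers 386 of the 1082 exon bases of BHLH38 (35.7%). It had 7.50 ± 0.550 CPM in opt3-2 roots, 8.19 ± 0.554 in wild type roots, 8.08 ± 0.819 in opt3-2 shoots and 7.63 ± 0.853 in wild type shoots, and passed in none of the 4 comparisons of genotype or tissue, with an adjusted p of 0.390 to 0.615 (edgeR). GLU1 (AT5G04140), a ferredoxin-dependent glutamate synthase of leaf plastids, covers 79 of the 1083 exon bases of BHLH101 (7.29%). It had 2138 ± 3.67 CPM in opt3-2 shoots and 1357 ± 19.1 in wild type shoots, against 2.35 ± 0.628 in opt3-2 roots and 2.90 ± 0.550 in wild type roots. GLU1 was higher in opt3-2 shoots (log2 0.66 ± 0.12, adjusted p = 0.00122, edgeR), where the BHLH101 value was -0.31. Root minus shoot, GLU1 differed by -9.82 in opt3-2 and -8.87 in wild type (log2), against -1.25 and -1.65 for BHLH101. The part of GLU1 reads in that BHLH101 difference was not tested, nor was their part in the shares, ratios and pool sums above that include BHLH101.

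The genes on which FIT and its partners act were then set beside the factors. Of 19 listed FIT targets of iron acquisition, 14 rose and 4 fell in opt3-2 roots and 1 did not pass. Among all genes tested, 17.5% were called higher there and 21.5% lower. The median of the list was 2.12 on the log2 scale, against -0.01 over all genes. S8H, which hydroxylates scopoletin to fraxetin, averaged 183 ± 51.0 CPM in opt3-2 roots and 1.35 ± 0.248 CPM in wild type roots (log2 7.08 ± 0.27, adjusted p = 5.34e-08, edgeR). MYB10, which with MYB72 drives NAS4, averaged 21.2 ± 1.77 and 3.48 ± 0.312 CPM in opt3-2 and wild type roots (2.61 ± 0.12). BGLU42, a glucosidase that frees coumarins for secretion, averaged 55.7 ± 8.41 CPM in opt3-2 roots and 16.0 ± 0.557 CPM in wild type roots (1.80 ± 0.11). MYB72 had no counts in wild type roots and 2.41 CPM in opt3-2 roots, at least 32.0-fold higher against the floor of 3 counts a library.

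The 4 listed targets that fell in opt3-2 roots are named because they went against the rest of the list, after their values were seen. They were the proton pump AHA2 (-0.55 ± 0.08 on the log2 scale), HMA3 (-1.06 ± 0.13), the vacuolar transporter FPN2 (-0.52 ± 0.12), and NRAMP1 (-0.50 ± 0.10), which takes up manganese and iron. AHA2 and NRAMP1 were among those that rose in opt3-2 shoots. COPT2, a copper transporter, was the one that did not pass. In shoots 6 of the 19 targets rose, 0 fell and 13 did not pass. Among all genes tested, 43.9% were called there, 21.3% as higher and 22.6% as lower. The median of the list was 0.67, or 0.53 when MYB72, at or under the floor in both genotypes, is set to 0. AHA2 averaged 212 ± 9.09 CPM in opt3-2 shoots and 147 ± 4.50 CPM in wild type shoots (0.53 ± 0.08, adjusted p = 2.00e-04, edgeR). IRT1 averaged 2.11 ± 0.564 CPM in opt3-2 shoots and 0.760 ± 0.200 CPM in wild type shoots (1.47 ± 0.28), and CYP82C4, which makes sideretin, 0.984 ± 0.165 and 0.210 ± 0.115 CPM (2.18 ± 0.33). The CYP82C4 level in wild type shoots is near the floor, since 3 counts correspond to 0.0990 to 0.124 CPM there. FIT itself was not called in shoots.

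Of 13 regulators of subgroup Ib transcription, 1 rose, 5 fell and 7 did not pass in opt3-2 roots (median log2 -0.22), a share called that is near the 39% of all genes (17.5% higher and 21.5% lower). BHLH115, a subgroup IVc activator, averaged 131 ± 2.38 CPM in opt3-2 roots and 191 ± 0.609 CPM in wild type roots (-0.54 ± 0.06). BTSL1 averaged 123 ± 18.9 CPM in opt3-2 roots and 251 ± 10.2 CPM in wild type roots (-1.03 ± 0.12), and the repressor BHLH11 4.57 ± 0.499 and 12.2 ± 2.39 CPM (-1.42 ± 0.21). The one that rose, named after its value was seen, was the peptide gene IMA3 (0.93 ± 0.24).

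In shoots 3 of these regulators rose, 4 fell and 6 did not pass (median 0.12), against 43.9% of all genes called there, so the counts show nothing particular to the list. BTS averaged 262 ± 23.96 CPM in opt3-2 shoots and 448 ± 77.1 CPM in wild type shoots (-0.77 ± 0.12), and IMA3 19.5 ± 5.29 and 33.4 ± 3.65 CPM (-0.77 ± 0.17). BHLH11 had 3.66 ± 0.214 CPM in opt3-2 shoots and 1.32 ± 0.573 CPM in wild type shoots (1.46 ± 0.26). BHLH11, BHLH104 and URI fell in opt3-2 roots and rose in opt3-2 shoots, and IMA3 did the reverse.

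Among 12 partners and modifiers of FIT, 2 rose, 3 fell and 7 did not pass in opt3-2 roots (median -0.14), close to the 39% of all genes called in roots. Transcripts of RGA and GAI, whose DELLA proteins bind FIT and restrain it, were lower, RGA at 64.5 ± 2.49 CPM in opt3-2 roots and 106 ± 2.96 CPM in wild type roots (-0.72 ± 0.06) and GAI at 9.41 ± 1.08 and 13.8 ± 0.879 CPM (-0.55 ± 0.11). ZAT12, a zinc finger protein that binds FIT, averaged 201 ± 33.4 CPM in opt3-2 roots and 83.6 ± 36.4 CPM in wild type roots (1.26 ± 0.27). In shoots 3 rose, 2 fell and 7 did not pass (43.9% of all genes were called there; median -0.19, or 0 with BHLH18 and BHLH25, at or under the floor in both genotypes, set to 0). BHLH18, with no counts in opt3-2 shoots, is 1 of those that fell. EIN3, which stabilises FIT, averaged 442 ± 43.8 CPM in opt3-2 shoots and 347 ± 16.0 CPM in wild type shoots (0.35 ± 0.07). BHLH20, a subgroup IVa factor that promotes FIT degradation, averaged 2.12 ± 0.302 CPM in opt3-2 shoots and 5.08 ± 1.59 CPM in wild type shoots (-1.27 ± 0.27). MED25, a Mediator subunit, gave 46.8 ± 5.85 and 36.2 ± 1.72 CPM (0.37 ± 0.09).

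Of 12 genes listed as leaf iron-responsive and outside FIT control, 11 were tested. The ferritin gene FER1 was left out by the filter on low counts. That name is only a label, and whether FIT acts on KELCH, GRF11 or the others was not tested. The list holds OPT3, the mutated gene, which is 1 of those that fell in each tissue (-2.86 ± 0.25 in roots and -4.02 ± 0.25 in shoots), so that its fall describes the genotype and not the list. In opt3-2 roots 3 rose, 2 fell and 6 did not pass (median -0.04). This is close to the 39% of all genes called there, 17.5% as higher and 21.5% as lower. KELCH had the smallest p, at 294 ± 23.99 CPM in opt3-2 roots and 45.1 ± 1.34 CPM in wild type roots (2.70 ± 0.07). ORG1, a kinase gene first grouped with BHLH38 and BHLH39 as responsive to the factor OBP3, fell to 48.2 ± 5.32 CPM in opt3-2 roots, against 77.5 ± 5.41 CPM in wild type roots (-0.69 ± 0.11). In opt3-2 shoots 6 rose and 5 fell, OPT3 being 1 of the 5 (median 0.35, against -0.00019 over all genes). Among all genes tested, 21.3% were called higher there and 22.6% lower. The 3 with the smallest p, the ferritins FER3 and FER4 and the transporter YSL1, are genes of iron storage and iron sufficiency rather than deficiency. FER4 averaged 41.5 ± 0.980 CPM in opt3-2 shoots and 9.29 ± 1.02 CPM in wild type shoots (2.16 ± 0.12), FER3 27.4 ± 1.22 and 6.99 ± 0.160 CPM (1.97 ± 0.12), and YSL1 77.0 ± 3.48 and 28.1 ± 1.23 CPM (1.46 ± 0.09). The others that rose in shoots were NEET, NAS4 and GRF11. Besides OPT3, those that fell were ZIF1 (-1.24 ± 0.12), FRO3 (-0.43 ± 0.10), ORG1 (-0.39 ± 0.11) and KELCH (-0.32 ± 0.07). These are named after their values were seen. BHLH38 and BHLH39 were higher in the same leaves.

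**Figure D4:**
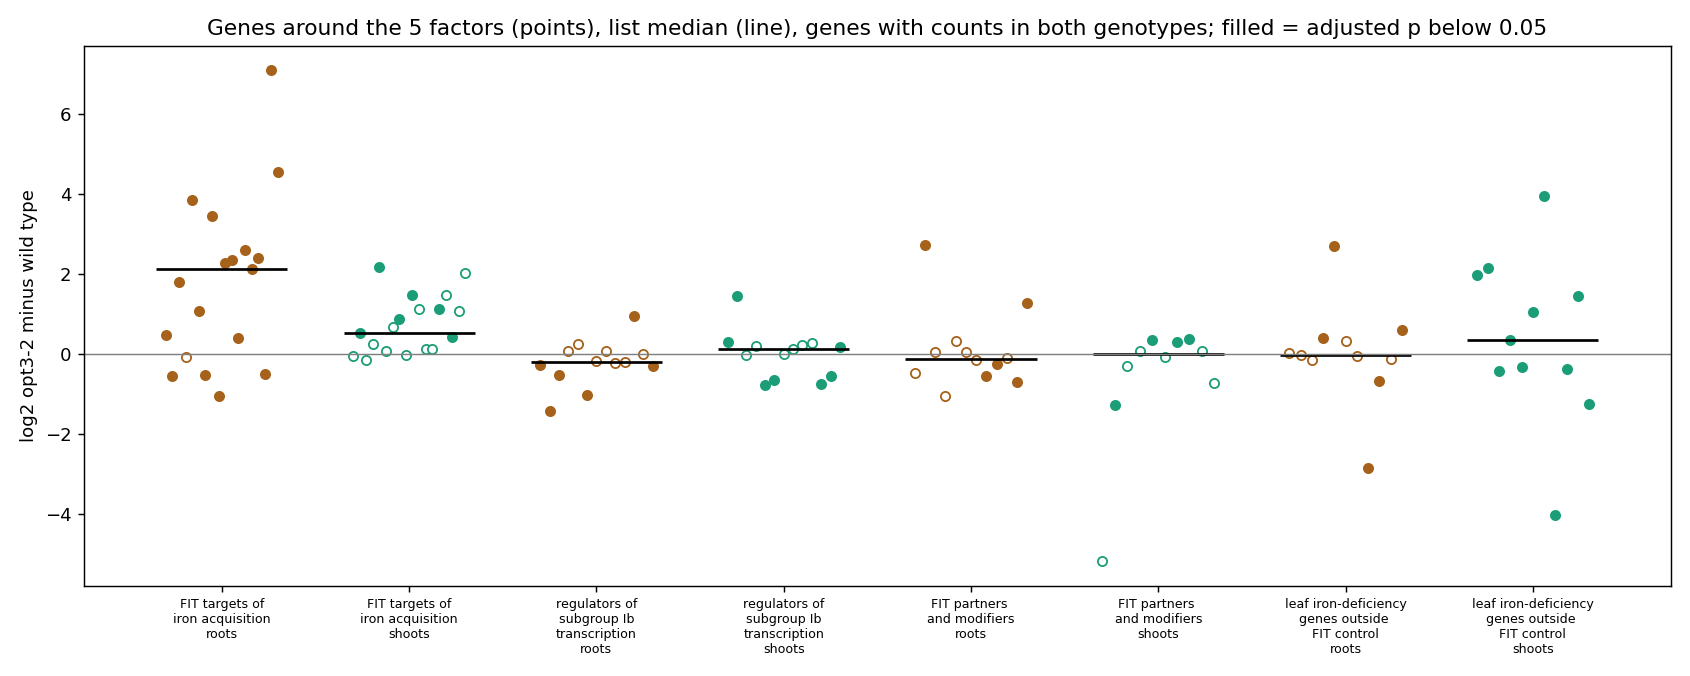
Differences between opt3-2 and wild type (log2) of single genes in the 4 lists, in roots and in shoots, for genes with counts in both genotypes; black lines are list medians with genes at 0 in a group set to their bound. FIT targets in roots have a median of 2.12, and the other lists lie around 0 with genes on both sides.

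FIT is made in the root epidermis, so markers of that layer were read beside it. Of 7 root epidermis and root hair markers, 3 rose and 0 fell in opt3-2 roots, against 17.5% and 21.5% of all genes. Their summed level ran from 69.9 to 88.7 CPM in opt3-2 roots and from 43.0 to 74.1 CPM in wild type roots, which overlap. GL2 was the only marker of this list with a lower mean in opt3-2 roots, at 4.57 CPM against 5.54 CPM in wild type roots. RHD6, a defining root hair factor, had no counts in shoots of either genotype, which held 12.1 to 13.1 CPM of the list in opt3-2 and 13.2 to 13.4 CPM in wild type, mostly GL2, which leaf hairs also express. The 4 root markers, mostly PYK10, summed to 2111 to 2296 CPM in opt3-2 roots and 3051 to 3374 CPM in wild type roots. Of 4 phloem and xylem markers, 3 rose and 1 fell in opt3-2 shoots, against 21.3% and 22.6% of all genes. The phloem markers SUC2, APL and AHA3 rose. The xylem marker XCP1 fell, at 7.21 CPM in opt3-2 shoots and 14.8 CPM in wild type shoots. The 4 markers, mostly SUC2 and AHA3, summed to 885 to 895 CPM in opt3-2 shoots and 572 to 669 CPM in wild type shoots. In opt3-2 roots 2 of the 4 rose and 0 fell, against 17.5% and 21.5% of all genes. There XCP1 averaged 93.0 CPM, against 62.2 CPM in wild type roots. Of the 4 leaf mesophyll markers, 2 rose and 0 fell in opt3-2 shoots (median 0.35), against 21.3% and 22.6% of all genes. Their sums, given above, did not overlap between genotypes, and 53% of single genes did not overlap in shoots. The part of these shifts in the differences of FIT, BHLH38 and BHLH39 was not tested.

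Column names end in a number that the labels do not explain and that partly follows genotype. It runs 1 to 3 in opt3-2, and 2 to 4 or 5 to 7 in wild type. With the shared numbers 2 and 3 only, which leave 1 wild type root library and 2 wild type shoot libraries, FIT differed by 1.47 (adjusted p = 0.00168) and BHLH39 by 1.15 (adjusted p = 0.00376) in roots, with the lone library taken to vary like the other groups. That library is wild type replicate 3, the lowest of its group for FIT and BHLH39, and the BHLH39 value is over 1.5 times the 0.75 found with all libraries. In shoots BHLH38 then differed by 0.70 (adjusted p = 0.0157) and BHLH39 by 0.62 (adjusted p = 0.0223, all by edgeR).

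Finally, the genes most like each member over the 12 libraries were ranked among 19933 genes averaging 1 CPM or more, as a description without a test, since all libraries share the same split of tissues and genotypes. For FIT the highest Pearson r of log2 CPM was 0.997, with AT3G50200, followed by ECA2 (0.996), AT3G04330 (0.996), AT5G05900 (0.995) and LBO1 (0.994). BHLH39 was nearest to AT4G33550 (0.980), RAP74 (0.976), CYP711A1 (0.972), SAPX and AT3G10320 (both 0.968). BHLH101 was nearest to AT2G19870 (0.993), AAPT1 (0.989), EXGT-A3 (0.987), emb1703 (0.987) and RSR4 (0.984). BHLH100 was nearest to PEP (0.966) and AT1G07705 (0.959). BHLH38 had no gene above TOP1BETA, at 0.849. Among the members, FIT and BHLH39 had an r of 0.935, FIT and BHLH101 -0.921, and the tandem neighbours BHLH38 and BHLH39 0.094.

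With each tissue's mean subtracted, r describes how libraries deviate within tissues. The difference between genotypes was not subtracted and enters this r. The neighbours BHLH38 and BHLH39 then had an r of 0.746, FIT and BHLH39 0.832, and FIT and BHLH100 0.819. FIT stood at rank 16 and BHLH39 at rank 26 of the genes most like BHLH100, whose nearest were PEP (0.887), AT1G07705 (0.885) and GSTZ1 (0.871). BHLH101 had an r of 0.416 to BHLH100, 0.164 to FIT, 0.023 to BHLH39 and -0.246 to BHLH38. The nearest genes on this measure were AT1G67360 (0.973) and NAC13 (0.961) for FIT, AT3G19550 (0.969) for BHLH39, AT2G42920 (0.895) and WRKY58 (0.889) for BHLH38, and AT1G42440 (0.921) for BHLH101.

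**Figure D5:**
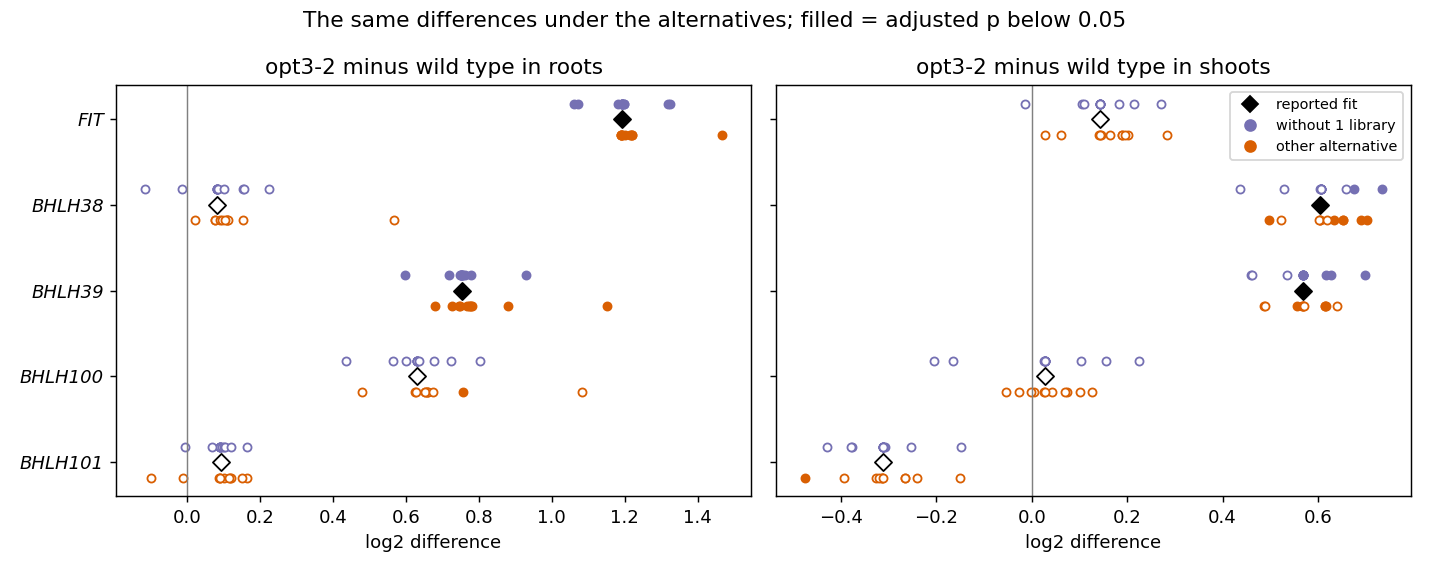
The genotype differences (log2) of the 5 genes in roots (left) and shoots (right) as reported (diamonds), without 1 library each (upper points) and under the other alternatives (lower points); filled symbols have an adjusted p below 0.05. FIT in roots lies between 1.06 and 1.47 and passes throughout, whereas BHLH38 in shoots lies between 0.44 and 0.73 and passes in part of the fits.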

How the data were processed

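Poly(A) RNA of leaves and roots was sequenced, per the labels' protocols. The authors deposited read counts per gene, whole numbers without normalization, in 36 columns. TopHat2, edgeR and the TAIR10 genome are named per the submitters' processing notes, without versions; how reads were counted, and whether by strand, was not stated there. Technical columns were summed to 12 libraries, since for the members their variance was 0.176 to 2.82 times the mean. edgeR 4.0.16 (R 4.3.3), with filterByExpr, TMM and a group-means model of 12 libraries and 21887 genes (robust quasi-likelihood F test, 8 residual degrees of freedom, two-sided) gave the adjusted p-values. It was tested on simulated counts. Each standard error is |log2 difference| divided by √F. CPM use TMM-scaled library sizes; floors cover counting error only. Gene names, exons and windows come from RefSeq TAIR10.1, which matched 28009 codes; 14 of 75 list symbols are not in it. Named genes are the members, OPT3, the 3 smallest p per list and tissue, and the 5 most alike genes per member. DESeq2 1.42.0 and limma 3.58.1 were alternatives. The members and lists were chosen with earlier results of these data known.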

Additional observations from a re-analysis of the deposited data

Results flagged for a closer look

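The genotype difference of FIT was larger in roots than in shoots by 1.05 on the log2 scale (SE 0.26, adjusted p = 0.00662, edgeR's interaction term). The same test passed for 48.2% of all genes, 24.2% with the larger value in roots. FIT was higher in 3 of 3 opt3-2 root libraries than in every wild type root library. Such a lack of overlap in roots held for 53.2% of all genes, in either direction. The shoot libraries overlapped for FIT. Over the alternatives the value ran from 0.92 to 1.21 with adjusted p from 5.15e-04 to 0.0418.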

How the results depend on the processing

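Of 570 alternative values of the 25 member results, 522 kept direction and side of the threshold, 27 lost the call, 6 gained one and 15 changed sign; 12 results did not change under any alternative. FIT in roots (1.06 to 1.47), BHLH39 in roots (0.60 to 1.15) and FIT between tissues of the genotype difference (0.92 to 1.21) passed throughout. All values are log2 differences, and the cause was not tested. In roots BHLH100 passed with DESeq2 (0.66), technical replicate 2 alone (0.76) and the 6 root libraries alone (0.65), and BHLH101 was -0.0091 with technical replicate 2 alone and -0.10 with the column numbers that both genotypes share, an alternative chosen after seeing the data. In shoots BHLH38 missed the threshold with library sizes alone (0.52), technical replicate 2 alone (0.62) and the replicate block (0.60). BHLH39 missed it with library sizes alone (0.49), limma-voom (0.57), and technical replicate 1 (0.64) or 3 (0.49) alone. BHLH100 turned to -0.053 with library sizes alone and to -0.0022 and -0.026 with technical replicates 1 and 2 alone. BHLH101 passed with technical replicate 3 alone, in shoots (-0.47) and between tissues (0.62). For root minus shoot in opt3-2, BHLH38 missed the threshold with library sizes alone (-0.039), no filter (-0.47), the replicate block (-0.47) and technical replicates 2 (-0.50) and 3 (-0.31) alone, and BHLH100 with library sizes alone (-0.48). In wild type BHLH38 was -0.27 with the shared column numbers. The shared column numbers, with fewer libraries, called 3803 genes in roots and 6707 between tissues, against 8530 and 10542.

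Leaving out 1 library at a time gave, in roots, -0.11 to 0.23 for BHLH38 and -0.0060 to 0.17 for BHLH101. In shoots it gave -0.014 to 0.27 for FIT (negative without wild type replicate 2), 0.44 to 0.73 for BHLH38, 0.46 to 0.70 for BHLH39 and -0.20 to 0.23 for BHLH100. Between tissues BHLH38 ran from -0.72, called without wild type root replicate 3, to -0.35. For root minus shoot, BHLH38 lay between -0.57 and -0.40 in opt3-2, and between -0.12 and 0.25 in wild type. Whether replicate numbers pair the samples is not settled. Of 18 same-number pairs 4 had a correlation over 0.1 (-0.31 to 0.13), and pairs of different numbers were not compared. The replicate block changed no member call other than the 2 named. With library sizes alone, 35.4% of calls in shoots were higher against 48.5% as reported, and for root minus shoot 66.8% against 51.5% in opt3-2 and 67.6% against 50.6% in wild type, where the median of all genes moved to 0.48 in opt3-2 and 0.37 in wild type.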
